A study of Mus musculus with 8 samples.

Results

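The 33 genes examined here encode the enzymes and carriers that bring pyruvate into mitochondria and burn it in the tricarboxylic acid (TCA) cycle, together with the shuttle and NADP-linked enzymes that share its intermediates. A gene was included if at least 1 array probe, control spots apart, carries the accession of one of its mouse RefSeq transcripts, and all probes of each gene were kept, which gave 51 probes for the 33 genes among 22911 named genes on the array. RNA came from a quadriceps muscle of 6 male mice aged 17 months, 3 Grsf1cKO and 3 WT, and was measured on 8 Agilent 1-color arrays, since WT 1 and Grsf1cKO 1 each had a repeat array. Grsf1cKO mice descend from the Grsf1tm1a allele, from which FLPo removed the LacZ and Neo cassettes, and carry exons 4 and 5 of *Grsf1* between LoxP sites, with recombination driven by Myf5Cre, which acts in the muscle lineage and leaves *Grsf1* intact in cells of other origin within the muscle. Whether the WT controls carried the floxed allele or Myf5Cre was not given in the sources used here. The labels name the muscle as the vastus intermedius and the study's methods as the rectus femoris.

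Pyruvate made by glycolysis crosses the inner mitochondrial membrane through the mitochondrial pyruvate carrier and is converted to acetyl-CoA by the pyruvate dehydrogenase complex, which kinases switch off and phosphatases switch on. Acetyl-CoA then enters the TCA cycle, whose dehydrogenases supply NADH to the respiratory chain, and in muscle this flux rises with contraction and sets how much glucose is oxidized rather than released as lactate. GRSF1 is an RNA-binding protein of mitochondrial RNA granules, while all enzymes described here are encoded by nuclear genes.

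All values are log2 signals after quantile normalization of the 8 arrays, averaged over the arrays of a mouse. As a check of the labels, the targeted gene *Grsf1* was examined first. Its signal was 14.30, 14.25 and 14.27 in WT 1 to 3 and 12.15, 12.02 and 12.08 in Grsf1cKO 1 to 3, a log2 difference of -2.19 (SE 0.0811, adjusted *p* = 0.00328 by limma, a linear model with variances shared across probes). Each array had 59305 spots that were not controls, and the share of them well above background was 66.3 to 73.1% on 7 arrays and 88.9% on the repeat array of Grsf1cKO 1, which stood apart. The 9 markers of skeletal muscle fibers, among them *Acta1*, *Ckm* and *Myh4*, were detected in all mice and had mean log2 signals of 18.44 to 18.52. Grsf1cKO 3 stood apart from the other 5 mice in markers of slow fibers, macrophages and fibroblasts, and the values are given with the results below. In RNA from whole muscle, fewer cells of a type and less RNA per cell cannot be told apart.

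All 51 probes were above background in all 6 mice, and none of the 33 genes changed between genotypes. A probe was called changed when it differed by more than 1.5-fold with limma's unadjusted *p* below 0.01 and a false discovery rate below 0.2, and 1 probe (0.00257%) was called higher and 2 probes (0.00514%) as lower among the 38888 probes tested. Each gene is described by its brightest probe, and the log2 difference, Grsf1cKO minus WT, ranged from -0.31 for *Me3* to 0.34 for *Pdk3*. The differences were below 0 for 29 of the 33 genes, with a median of -0.09, beside a median of -0.03 and 57.5% below 0 over all probes tested, but with the deposited *z*-scores 14 genes were below 0, 18 were above and the median was 0.01. These scores center and scale the log2 signals of each array on its own, with no quantile normalization, and are rounded in steps that equal 0.0429 on the log2 scale. Most of these genes are bright, 23 of them with a mean log2 signal of 14 or more, and the 3420 probes this bright had a median of -0.02, with 61.8% below 0. The lowest adjusted *p* of a member gene was 0.996 by limma and 2.22e-10 by the methods' *z*-test, under which no member differed by over 1.5-fold either.

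The data limit how large a difference could have gone unseen. The 95% confidence interval of the log2 difference reached 0.20 to 0.55 on either side, with a median of 0.23, and for 29 of the 33 genes the whole interval lay within a 1.5-fold change in either direction (0.58 on the log2 scale). The 4 exceptions were *Dlat*, with a lower bound of -0.59, *Me3*, with a lower bound of -0.77, and *Me2* and *Pdk3*, with upper bounds of 0.69 and 0.68. The median SD of the genes was 0.10 among WT and 0.08 among Grsf1cKO, beside 0.16 and 0.16 for all probes tested. Most of the genes are bright, and the SD was not taken for bright probes alone, so it has no reference at like signal. The narrowest was *Ogdh*, with an SD of 0.02 among WT, and the widest was *Dlat*, with 0.39.

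**Figure D1:**
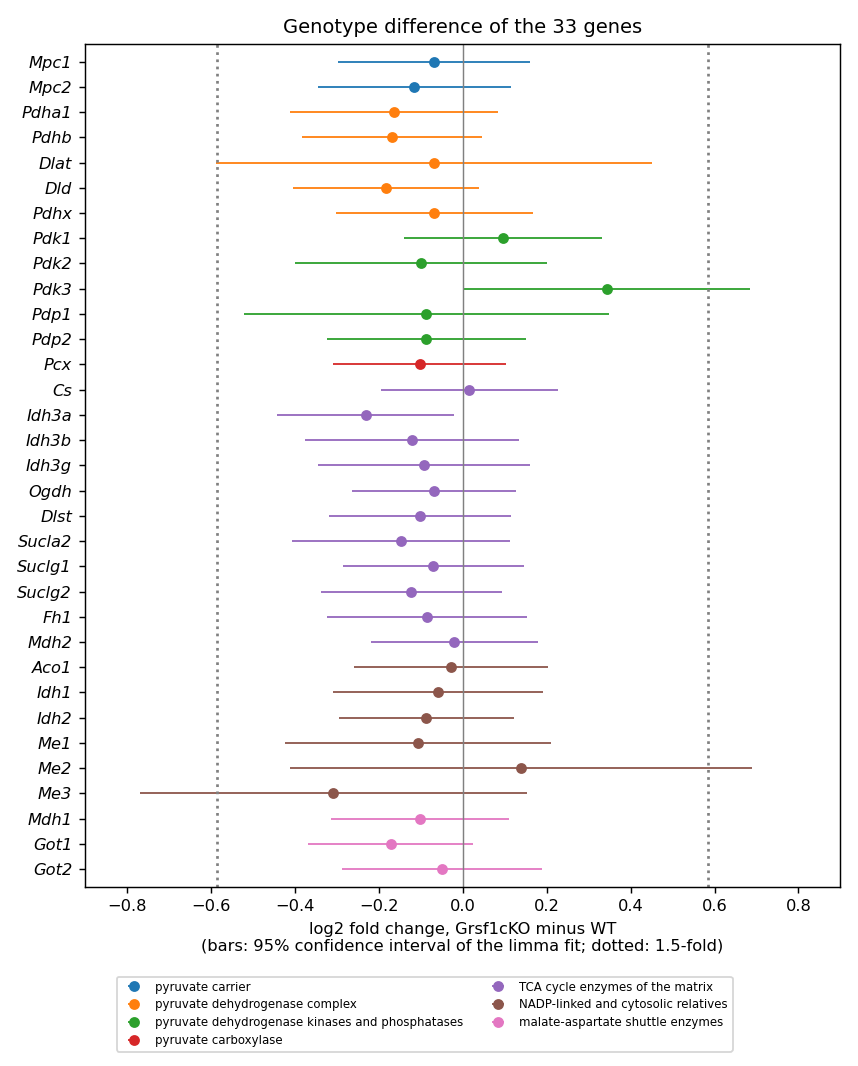
Log2 difference, Grsf1cKO minus WT, of the brightest probe of each of the 33 genes (points), with the 95% confidence interval of the limma fit (bars) and the 1.5-fold change (dotted lines), colored by role. In 29 genes the point lies below 0 and in 29 the whole bar lies between the dotted lines, while with the deposited *z*-scores only 14 points were below 0.

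Before the adjustment for multiple tests, 1 gene was higher with *p* under 0.05 (*Pdk3*), where 1.29% of all probes tested were, and 1 was lower (*Idh3a*), where 2.96% were. Among bright probes, of which *Idh3a* is one, the shares were 0.292% higher and 0.526% lower. The 3 Grsf1cKO mice were all above the 3 WT mice in 1 gene (*Pdk3*), beside 3.08% of all probes and 3.34% of bright ones. They were all below the WT mice in 7 genes (*Mpc2*, *Pdhb*, *Dld*, *Idh3a*, *Idh2*, *Me3* and *Got1*), beside 6.27% of all probes and 7.17% of bright ones. With the deposited *z*-scores *Pdk3* was the 1 gene whose genotypes did not overlap, while with normexp background correction or the repeat arrays replacing the first ones its genotypes overlapped. For such a gene the exact permutation test of 3 against 3 mice gives *p* = 0.1 (two-sided), the smallest it can give.

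The stretches upstream of 4 of these 8 genes are shown to let the proximal promoter of the 1 gene on the high side be read next to those of genes on the low side. They cover the 250 bases before the start listed for the gene in a promoter table from RefSeq (GRCm38.p6), 5′ to 3′ on its strand. The starts listed for *Pdhb*, and for *Idh2* and *Me3* described below, lie within the spans annotated for those genes. Capitals mark matches to the GC box GGGCGG (bound by Sp1) and to AAGGTCA. The latter is the core of the element bound by estrogen-related receptors, which drive many genes of oxidative metabolism.
*Pdk3*, chrX:93832151-93832400, minus strand: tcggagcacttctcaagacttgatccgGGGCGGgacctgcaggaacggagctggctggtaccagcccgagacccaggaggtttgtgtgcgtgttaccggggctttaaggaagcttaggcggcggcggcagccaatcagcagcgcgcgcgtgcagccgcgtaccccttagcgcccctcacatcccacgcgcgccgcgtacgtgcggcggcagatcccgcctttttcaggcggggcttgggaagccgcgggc
*Mpc2*, chr1:165461010-165461259, plus strand: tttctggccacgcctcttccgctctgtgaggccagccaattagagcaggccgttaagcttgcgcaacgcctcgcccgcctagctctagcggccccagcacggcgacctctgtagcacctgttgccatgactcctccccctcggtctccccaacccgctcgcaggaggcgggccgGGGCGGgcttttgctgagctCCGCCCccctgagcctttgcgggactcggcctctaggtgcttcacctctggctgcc
*Pdhb*, chr14:8172993-8173242, minus strand: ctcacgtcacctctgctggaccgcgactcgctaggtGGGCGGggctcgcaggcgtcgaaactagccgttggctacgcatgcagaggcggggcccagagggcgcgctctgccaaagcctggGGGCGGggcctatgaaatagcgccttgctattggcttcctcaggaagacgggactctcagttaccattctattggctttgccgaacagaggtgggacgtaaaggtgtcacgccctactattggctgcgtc
*Got1*, chr19:43524606-43524855, minus strand: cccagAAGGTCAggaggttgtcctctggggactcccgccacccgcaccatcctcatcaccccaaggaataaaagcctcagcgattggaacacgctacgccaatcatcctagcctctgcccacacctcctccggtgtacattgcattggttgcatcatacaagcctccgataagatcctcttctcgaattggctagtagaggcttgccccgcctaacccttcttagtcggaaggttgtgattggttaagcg
A promoter was read for 30 of the 33 genes. *Me2* was left out of the search because of its chromosome, a filter not applied to the reference of all promoters. The letters were searched on both strands, so that CCGCCC and TGACCTT count too. A GC box lay in the 250 bases of 21 of the 30 genes (70.0%), beside 32.7% of all 32851 promoters of the same length and 35.4% of genes. The reference includes genes not detected in this muscle, and no share was taken over detected genes alone. It was present upstream of *Pdk3*, *Mpc2*, *Pdhb* and *Idh2*, and the upstream stretches of *Dld*, *Me3* and *Got1* held none. No stretch was read for *Idh3a*. AAGGTCA was found upstream of *Got1* alone among the 30 genes (3.33%), beside 4.08% of all promoters and 4.7% of genes. The E box CACGTG was found upstream of 4 of the 30 genes (*Ogdh*, *Pcx*, *Pdk2* and *Pdp2*, 13.3%), beside 6.02% of all promoters and 6.86% of genes. The cAMP response element TGACGTCA was found upstream of *Mdh2* and *Ogdh* (6.67%), beside 1.55% of all promoters and 1.77% of genes. These matches describe the letters, and no relation to the expression values was tested.

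The mitochondrial pyruvate carrier, a heterodimer of MPC1 and MPC2, admits pyruvate to the matrix. *Mpc2* log2 signals were 16.69, 16.61 and 16.61 in WT 1 to 3 and 16.57, 16.59 and 16.39 in Grsf1cKO 1 to 3. All 3 Grsf1cKO mice were below the WT mice, by 0.01 for the nearest pair, and Grsf1cKO 3 was lowest. The difference was -0.12 (95% interval -0.34 to 0.11), it was -0.05 without Grsf1cKO 3, and with the deposited *z*-scores it was 0.02. *Mpc1* was measured by 2 probes with differences of -0.07 and -0.08, and its genotypes overlapped in each. Its brighter probe gave -0.04 without Grsf1cKO 3, 0.03 with the deposited *z*-scores and -0.13 with the 75th percentile scaling.

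All 5 genes of the pyruvate dehydrogenase complex had differences below 0, with a median of -0.16, and none changed. With the deposited *z*-scores all 5 were below 0 with a median of -0.05, and without Grsf1cKO 3 there were 4 below 0 with a median of -0.11. The complex joins the E1 decarboxylase (*Pdha1* and *Pdhb*), the E2 acetyltransferase that carries the lipoyl arms (*Dlat*), the E3 dehydrogenase that reoxidizes them (*Dld*) and the E3-binding protein (*Pdhx*). *Pdhb*, the beta subunit of E1, had log2 signals of 16.55, 16.49 and 16.41 in WT 1 to 3 and of 16.39, 16.28 and 16.27 in Grsf1cKO 1 to 3. The lowest WT mouse and the highest Grsf1cKO mouse were 0.02 apart, and the difference was -0.17 (95% interval -0.38 to 0.05, limma's unadjusted *p* = 0.102), or -0.04 with the deposited *z*-scores. *Dld*, which also serves the 2-oxoglutarate and branched-chain ketoacid complexes, had log2 signals of 15.09, 14.94 and 14.90 in WT and of 14.85, 14.75 and 14.78 in Grsf1cKO. All 3 Grsf1cKO mice were below the WT mice, with a difference of -0.18 (95% interval -0.40 to 0.04, limma's unadjusted *p* = 0.0891), or -0.11 with the deposited *z*-scores. *Pdha1*, the alpha subunit of E1, differed by -0.16, and its genotypes overlapped, with WT 1 at 15.98 and Grsf1cKO 2 at 16.02. *Pdhx* differed by -0.07, and by -0.02 without Grsf1cKO 3, -0.01 without WT 1 and -0.11 without WT 3. The brightest *Dlat* probe spread from 13.16 to 13.92 among WT mice, and its other probe, with an SD of 0.02 among WT, gave a difference of -0.09.

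Of the 5 genes that regulate the complex, 2 kinases had differences above 0 and the other 3 genes below, with a median of -0.09 (0.03 with the deposited *z*-scores and -0.01 without Grsf1cKO 3). The kinases PDK1, PDK2 and PDK3 phosphorylate E1 and inactivate it, and the phosphatases PDP1 and PDP2 reverse this. *Pdk3* had the largest difference above 0 of the 33 genes and was also the dimmest. Its log2 signals were 6.91, 6.42 and 6.71 in WT 1 to 3 and 7.005, 7.08 and 6.98 in Grsf1cKO 1 to 3. All Grsf1cKO mice were above all WT mice, with 0.08 between the nearest mice, and with a difference of 0.34 (95% interval 0.00 to 0.68, limma's unadjusted *p* = 0.0479, adjusted *p* = 0.996). The repeat array exceeded the first by 0.40 in Grsf1cKO 1 and by 0.28 in WT 1, differences of the size of the genotype difference itself. With the first arrays alone the difference was 0.32, and with the arrays of slide 2 alone, which hold WT 1 (repeat), WT 3 and all Grsf1cKO arrays, it was 0.15 (unadjusted *p* = 0.328).

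*Pdk1* was measured by 4 probes. Its brightest probe gave 12.29, 12.41 and 12.21 in WT 1 to 3 and 12.38, 12.34 and 12.49 in Grsf1cKO 1 to 3. The genotypes overlapped, with a difference of 0.10 (95% interval -0.14 to 0.33). It was 0.05 without WT 3, 0.05 without Grsf1cKO 3, 0.15 without WT 2 and 0.03 with the probes of the gene averaged. The other 3 probes gave 0.19, 0.04 and -0.22, the widest disagreement between probes of 1 gene. *Pdk2*, the most widely expressed kinase isoform, differed by -0.10, *Pdp1* by -0.09 and *Pdp2* by -0.09, and in these 3 genes the genotypes overlapped. Without Grsf1cKO 3 *Pdk2* differed by -0.01, and without WT 3 *Pdp1* differed by 0.08. *Pdk1* and *Pdp2* each had probes of opposite sign, with the dimmer *Pdp2* probe at 0.02. *Pcx*, pyruvate carboxylase, which makes oxaloacetate from pyruvate and refills the cycle, had a difference of -0.10 (95% interval -0.31 to 0.10).

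**Figure D2:**
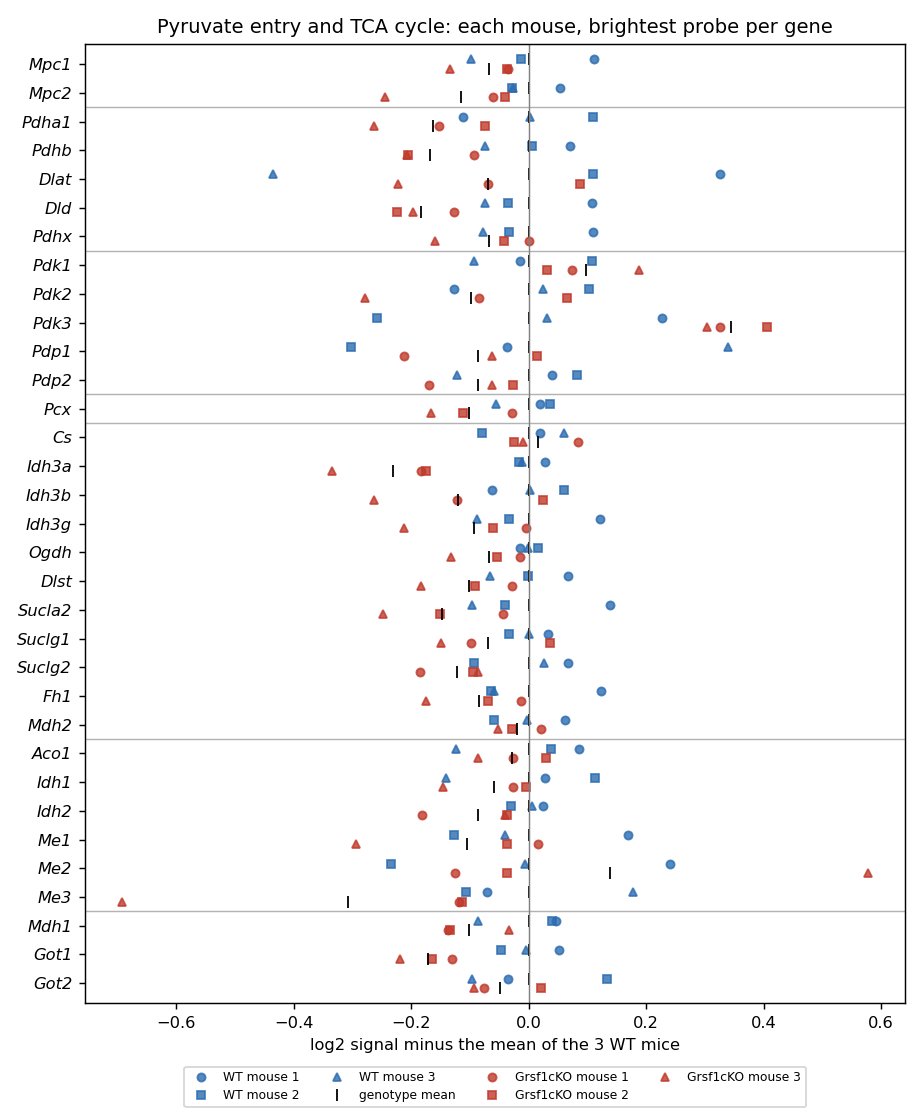
Log2 signal of each mouse minus the mean of the 3 WT mice, for the brightest probe of each of the 33 genes, with WT in blue, Grsf1cKO in red, a symbol for each mouse number and a black tick at each genotype mean; gray lines separate the roles. Grsf1cKO 3 is the lowest of the 6 mice in 19 genes and WT 1 the highest in 18; the mean of Grsf1cKO lies below 0 in 29 genes, against 14 with the deposited *z*-scores.

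Of the 11 matrix enzymes of the TCA cycle, 10 had differences below 0 and *Cs* was above, with a median of -0.09, whereas with the deposited *z*-scores 8 were above 0 and the median was 0.03. Without Grsf1cKO 3 the median was -0.04. *Idh3a*, the catalytic subunit of NAD-dependent isocitrate dehydrogenase, a rate-limiting step of the cycle, had the lowest unadjusted *p* of the 33 genes. Its log2 signals were 16.81, 16.77 and 16.77 in WT 1 to 3 and 16.60, 16.61 and 16.45 in Grsf1cKO 1 to 3. The WT mice lay within 0.05 of each other, all above the Grsf1cKO mice, and Grsf1cKO 3 was lowest. The difference was -0.23 (95% interval -0.44 to -0.02, limma's unadjusted *p* = 0.0366, adjusted *p* = 0.996). It was -0.18 (unadjusted *p* = 0.107) without Grsf1cKO 3, -0.22 (unadjusted *p* = 0.0794) on slide 2 alone and -0.10 (unadjusted *p* = 0.50) with the deposited *z*-scores. With the first arrays alone it was -0.26 (unadjusted *p* = 0.0228), and with the 75th percentile scaling -0.25 (unadjusted *p* = 0.0250). An intensity trend in limma gave *Idh3a* an unadjusted *p* of 0.00377 and an adjusted *p* of 0.982. Its unadjusted *p* was under 0.05 in 6 of 17 alternatives. The regulatory subunits *Idh3b* and *Idh3g* had differences of -0.12 and -0.09 (-0.05 and -0.03 without Grsf1cKO 3, 0.01 and 0.04 with the deposited *z*-scores), and the genotypes overlapped in each.

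*Mdh2*, mitochondrial malate dehydrogenase, which closes the cycle, was the brightest of the 33 genes. Its log2 signals were 18.48, 18.36 and 18.41 in WT 1 to 3 and 18.44, 18.39 and 18.36 in Grsf1cKO 1 to 3. The mice of each genotype were interleaved, with a difference of -0.02 (95% interval -0.22 to 0.18), or -0.15 with the 75th percentile scaling. *Cs*, citrate synthase, whose activity is often used as a measure of mitochondrial content, was 17.85, 17.75 and 17.89 in WT and 17.91, 17.80 and 17.82 in Grsf1cKO. Its genotypes overlapped, with a difference of 0.02 (95% interval -0.20 to 0.23), and its other probe gave -0.01. With the 75th percentile scaling the brightest *Cs* probe gave -0.10. The components of the 2-oxoglutarate dehydrogenase complex, *Ogdh* and *Dlst*, had differences of -0.07 and -0.10. Of the succinyl-CoA ligase subunits, *Suclg1*, which all forms of the enzyme share, differed by -0.07, the ATP-forming subunit *Sucla2* by -0.15 and the GTP-forming subunit *Suclg2* by -0.12, the latter with 2 dimmer probes at 0.02 and 0.09. *Fh1*, fumarase, differed by -0.09.

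The relatives of the cycle enzymes include NADP-linked dehydrogenases, which supply NADPH for biosynthesis and antioxidant defense, cytosolic forms, and the malic enzymes. In this group 5 of 6 genes had differences below 0, with a median of -0.07, against 3 of 6 with the deposited *z*-scores. *Me3*, a mitochondrial NADP-dependent malic enzyme, had the largest difference below 0 of the 33 genes. Its log2 signals were 15.11, 15.08 and 15.36 in WT 1 to 3 and 15.07, 15.07 and 14.49 in Grsf1cKO 1 to 3. Grsf1cKO 1 and 2 lay just below WT 1 and 2, and Grsf1cKO 3 was far below all others. The difference was -0.31 (95% interval -0.77 to 0.15), and without Grsf1cKO 3 it was -0.12.

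*Me2*, the NAD-linked mitochondrial malic enzyme, had log2 signals of 8.76, 8.28 and 8.51 in WT 1 to 3 and of 8.39, 8.48 and 9.10 in Grsf1cKO 1 to 3. Grsf1cKO 3 was the highest mouse here, the opposite of its place in *Me3*, and the difference of 0.14 (95% interval -0.41 to 0.69) became -0.08 without it. *Idh2*, the mitochondrial NADP-dependent isocitrate dehydrogenase, had log2 signals of 16.78, 16.72 and 16.76 in WT and of 16.57, 16.72 and 16.71 in Grsf1cKO. The genotypes did not overlap, but the nearest mice, WT 2 and Grsf1cKO 2, differed by less than 0.01. The difference was -0.09 (95% interval -0.29 to 0.12), the dimmer *Idh2* probe gave 0.06, and with the deposited *z*-scores the difference of the brightest probe was 0.03. Without Grsf1cKO 1, the lowest mouse, the brightest probe gave -0.04. *Me1*, the cytosolic malic enzyme, differed by -0.11, *Idh1*, the cytosolic isocitrate dehydrogenase, by -0.06 and *Aco1*, the cytosolic aconitase that doubles as iron regulatory protein 1, by -0.03, and the genotypes overlapped in all 3. Without Grsf1cKO 3 *Me1*, *Idh1* and *Aco1* differed by -0.01, -0.02 and 0.002, and without WT 1 *Aco1* differed by 0.02.

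The malate-aspartate shuttle carries the electrons of cytosolic NADH into the matrix. Its 3 enzymes had differences below 0, with a median of -0.10, while 2 of the 3 were above 0 with the deposited *z*-scores. *Got1*, the cytosolic aspartate aminotransferase, had log2 signals of 16.82, 16.72 and 16.77 in WT 1 to 3 and of 16.64, 16.61 and 16.55 in Grsf1cKO 1 to 3. All Grsf1cKO mice were below all WT mice, with a difference of -0.17 (95% interval -0.37 to 0.03, limma's unadjusted *p* = 0.0776), and of -0.05 with the deposited *z*-scores. The dimmer *Got1* probe gave -0.14, with overlap. *Got2*, the mitochondrial aminotransferase, differed by -0.05, and the cytosolic *Mdh1* by -0.10 and -0.15 in its 2 probes, all with overlap.

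Probes of the same gene give a check within the arrays. Of the 33 genes, 15 had 2 to 4 probes, and their differences had the same sign in 8 (*Mpc1*, *Dlat*, *Pdp1*, *Idh3g*, *Ogdh*, *Me1*, *Mdh1* and *Got1*). In these 8 genes the probes differed by at most 0.05 from one another. In the other 7, the range ran from 0.03 for *Cs* to 0.42 for *Pdk1*, and no range exceeded a 1.5-fold change. Over all 51 probes, 39 differences were below 0 and 12 above. With the probes of each gene averaged, the median over genes was -0.09 and the genotypes did not overlap in 7 genes.

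**Figure D3:**
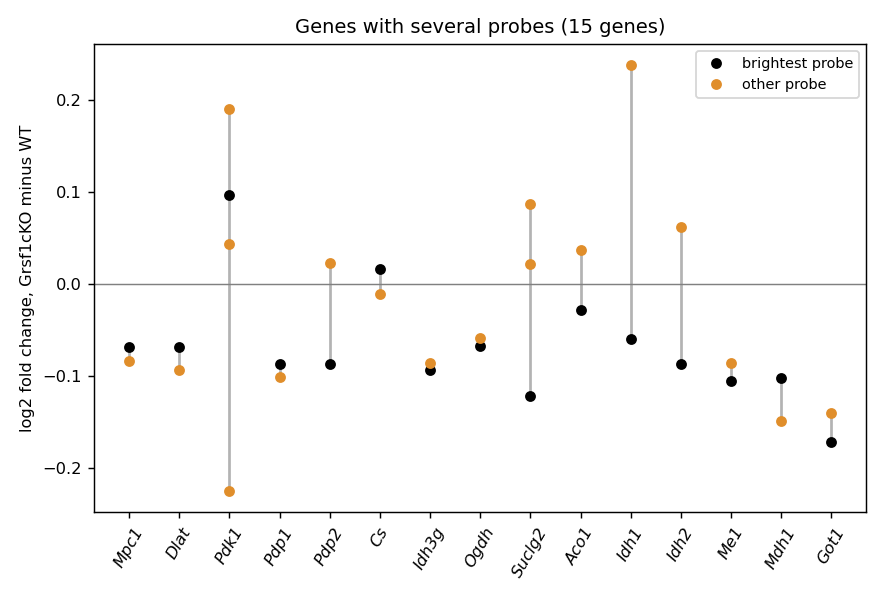
Log2 difference, Grsf1cKO minus WT, of every probe of the 15 genes with several probes, with the brightest probe in black, the others in orange and a gray line over their range. In 8 genes the probes lie on the same side of 0, and the widest range, 0.42, is that of *Pdk1*; these are quantile-normalized signals, and with the deposited *z*-scores 14 of the 33 genes, by brightest probe, turned from below to above 0.

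The repeat arrays show how far a member gene moved between arrays of the same mouse. Both arrays of Grsf1cKO 1 lay on slide 2, while those of WT 1 lay on slides 1 and 2. Between the arrays of WT 1 the median absolute difference was 0.03 for the 33 genes, beside 0.07 for all probes, and between those of Grsf1cKO 1 it was 0.04, beside 0.13. These differences were not taken for bright probes alone. For 30 genes in WT 1 and 28 in Grsf1cKO 1 the arrays were within 0.1. *Pdk3* had the largest upward difference between arrays in each mouse. The median of the 33 genes was -0.10 with the first arrays alone and -0.09 with the repeat arrays in their place. These settings exchange the arrays of both mice at once.

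The differences below 0 were carried unequally by the mice. Grsf1cKO 3 was the lowest of the 6 mice in 19 of the 33 genes (57.6%), beside 19.3% of all probes and 32.6% of bright probes, and WT 1 was the highest in 18 (54.5%), beside 20.6% and 29.1%. The median of the 33 genes relative to the WT mean was 0.05, -0.03 and -0.04 in WT 1 to 3 and -0.07, -0.04 and -0.16 in Grsf1cKO 1 to 3. Grsf1cKO 2 thus lay level with WT 3, and Grsf1cKO 3 lay apart. Bright probes gave -0.01, -0.01 and -0.05 in Grsf1cKO 1 to 3. Without Grsf1cKO 3 the median difference was -0.05, and without WT 1 it was -0.07.

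Markers of slow fibers, macrophages and fibroblasts moved with the same mouse. The mean log2 signal of 6 slow-fiber markers was 11.50 to 12.29 in the WT mice, 12.19 in Grsf1cKO 1, 11.69 in Grsf1cKO 2 and 13.10 in Grsf1cKO 3, where 5 of the 6 were at their highest. *Tnni1*, slow troponin I, was 14.33 in Grsf1cKO 3 and 10.35 to 11.21 in the others, whereas *Myh7*, the slow myosin heavy chain, was 9.39 there and 9.27 to 11.38 in the others. The 6 macrophage markers were all highest in Grsf1cKO 3, with a mean of 12.36 beside 11.38 to 11.65 in the other mice, and the 5 fibroblast markers, of which 3 were at their highest there, averaged 14.84 beside 14.29 to 14.65. Adipocyte markers averaged 11.55 to 12.72 in WT and 11.81 to 12.51 in Grsf1cKO. Grsf1cKO 3 lay within the range of the other mice for endothelium (11.96) and Schwann cells (12.285), and was lowest for satellite cells (8.65). All these markers were detected in every mouse, no marker gene changed between genotypes, and their part in the values of the 33 genes was not tested.

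**Figure D4:**
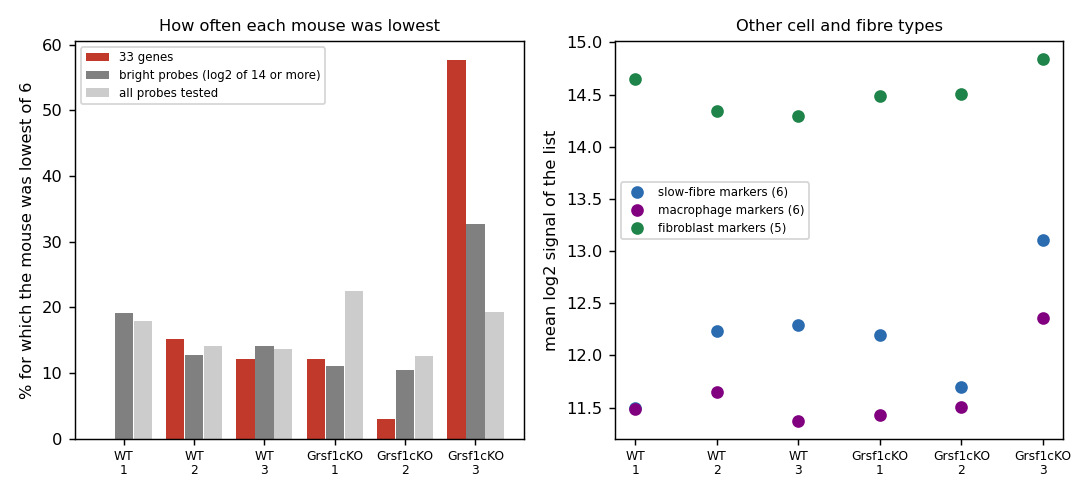
Left, percentage of the 33 genes (red), of probes with a log2 signal of 14 or more (dark gray) and of all probes tested (light gray) for which each mouse was the lowest of 6. Right, mean log2 signal of the slow-fiber, macrophage and fibroblast markers in each mouse; Grsf1cKO 3 is lowest in 57.6% of the 33 genes and has the highest mean of each marker list.

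The slide on which an array lay overlapped with genotype, since slide 1 held only the first array of WT 1 and that of WT 2. With the slide as a term in the fit the median of the 33 genes was -0.08, and on slide 2 alone it was -0.09. *Pdk3* and *Idh3a* had unadjusted *p* of 0.384 and 0.0620 with the slide term.

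**Figure D5:**
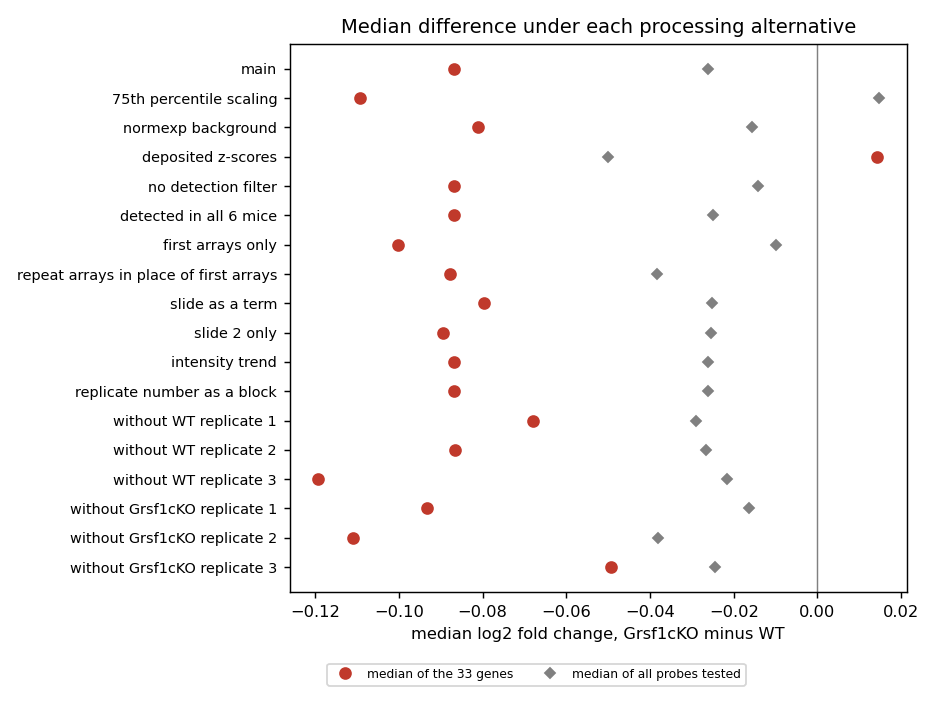
Median log2 difference, Grsf1cKO minus WT, of the 33 genes (red) and of all probes tested (gray diamonds) under each way of processing the arrays; replicate numbers are mouse numbers. The median of the 33 genes lies between -0.12 and -0.05 under the settings shown, apart from the deposited *z*-scores, where it is 0.01 and lies above that of all probes (-0.05).

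A list of 38 other genes of the pathway was examined in the same way, and 37 of them had a probe. None changed, 0 had an unadjusted *p* under 0.05, and the differences were below 0 in 30 and above in 7, with a median of -0.08 (25, 12 and -0.04 with the deposited *z*-scores). The extremes were 2 dim carrier genes, *Slc25a1* (the citrate carrier) at -0.36 and *Slc25a10* (the dicarboxylate carrier) at 0.24, with genotypes overlapping in each. The other *Slc25a1* probe gave -0.03. *Slc25a10* read 6.29 and 4.77 on the first and repeat arrays of Grsf1cKO 1, and its difference was 0.41 with the first arrays alone. In 5 of the 37 genes all Grsf1cKO mice were below all WT mice, beside 6.27% of all probes and 7.17% of bright ones: *Slc25a12* (the aspartate-glutamate carrier of muscle, -0.15), *Pcca* (propionyl-CoA carboxylase, -0.10), *Glud1* (glutamate dehydrogenase, -0.11), *Slc16a3* (the lactate exporter MCT4, -0.26) and *Sirt3* (the matrix deacetylase, -0.18). These 5 were picked out after their values were seen. The succinate dehydrogenase genes *Sdha*, *Sdhb*, *Sdhc* and *Sdhd* differed by -0.20, -0.02, -0.06 and -0.11.

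*Pdk4*, the kinase isoform that rises with fasting and fat oxidation, had log2 signals of 16.31, 16.44 and 16.26 in WT 1 to 3 and of 16.36, 16.68 and 16.66 in Grsf1cKO 1 to 3. Grsf1cKO 2 and 3 were above all WT mice and Grsf1cKO 1 was not, with a difference of 0.23 (95% interval -0.07 to 0.53, limma's unadjusted *p* = 0.107). The lactate dehydrogenase genes *Ldha* and *Ldhb*, at the branch where pyruvate is turned to lactate, differed by 0.02 and -0.04.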

How the data were processed

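Total RNA of 6 mice was hybridized to 8 Agilent arrays. The authors deposited the spot intensity of each array as Feature Extraction (version 12.0.3.1) gives it, background-corrected and not normalized between arrays, and a table of scores. The deposited score is a *z*-score of the log2 intensity of each array, rounded to 2 decimals, which equals 0.0429 on the log2 scale; it was recomputed within 0.005. According to the methods, quantile-normalized intensities were compared by *z*-test.

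Control spots were left out, outlier spots were set to missing, and the processed signal was quantile normalized and taken to log2. Spots of a probe were averaged first and arrays of a mouse second, which makes the mouse the replicate. Probes that were well above background in 3 or more mice and had values in 2 or more per genotype were fitted with genotype as the only term (limma 3.58.1, R 4.3.3), with Benjamini-Hochberg adjustment over all 38888 probes. The number of arrays limits the precision. Probes were named through their accession in RefSeq's table of GRCm38.p6 (the array design is on mm9), used for names only, and 32994 of 56605 probes were matched. For a gene with several probes, the one with the highest mean signal was used and the others were given. Symbols were updated for *Mut* alone.

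Genes with values in each mouse are those with an unadjusted *p* under 0.05, those whose genotypes did not overlap, the 3 largest differences in each direction, and the brightest and dimmest; *Cs* and *Pdk4* were added after their values were seen. The 33 genes and the lists were chosen with earlier results of these data known. Alternatives were the 75th percentile scaling, normexp (offset 50), the deposited scores, the detection filter, the arrays used, the slide, an intensity trend, the replicate block, the methods' *z*-test, other criteria, all probes of a gene averaged, and each mouse left out; the comparison with bright probes was chosen after seeing the data. The fit was tested on simulated data. Promoters were read with Python 3.11.15. Probe and protein sequences were not analysed here, and 1 gene of the wider pathway list is not reported here.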

Additional observations from a re-analysis of the deposited data

How the results depend on the processing

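None of the 33 genes changed under any alternative run, except that 2 passed where an unadjusted *p* under 0.05 alone was the criterion (1653 probes in all). The number of probes changed, 3 in the main analysis, was 1 with the replicate block and 373 with the methods' *z*-test, here run with the same fold criterion in place of the *z*-ratio and without the ANOVA filter. It gave 11 of the 33 genes a *p* under 0.05, with a lowest adjusted *p* of 2.22e-10. The share of all probes with such a *p* by this test is not given here, so the 11 has no reference. No member passed because none differed by over 1.5-fold. The number of the 33 genes with an unadjusted *p* under 0.05, 2 in the main analysis, was 4 with an intensity trend, 1 with no detection filter, and 0 with the deposited *z*-scores, the repeat arrays replacing the first ones, the slide as a term, slide 2 alone or the replicate block, and it was 0 to 1 when each mouse was left out in turn. The 4 genes with the intensity trend were *Pdhb*, *Dld*, *Idh3a* and *Got1*, with limma's unadjusted *p* of 0.0220, 0.0278, 0.00377 and 0.00933. The share of all probes with such a *p* under the trend is not given here. The number of genes whose genotypes did not overlap, 8 in the main analysis, was 1 with the deposited *z*-scores. It was 10 to 17 when each mouse was left out, where fewer mice make separation easier. Shares of all probes without overlap are given for the main analysis only, so these other counts have no such reference. The median difference was 0.0143 with the deposited *z*-scores and -0.12 to -0.05 when each mouse was left out (-0.05 without Grsf1cKO 3). Of the 33 genes, 14 turned from below to above 0 and 1 came to 0 with the deposited *z*-scores, and 1 to 3 turned under the 75th percentile scaling, the slide settings or without 1 mouse, where any did. Among the genes described in each mouse by the rule for named genes, those that turned sign were *Mpc2* (0.0214), *Idh2* (0.0286) and *Mdh2* (0.05002) with the deposited *z*-scores, *Mdh2* without WT 1 (0.0111, the highest of -0.0493 to 0.0111 when each mouse was left out) and *Me2* without Grsf1cKO 3 (-0.0812, the lowest of -0.0812 to 0.271). The cause was not tested. With the replicate block *Grsf1* had the same difference (-2.19) and an adjusted *p* of 0.25. Mice of the same number correlated at 0.232, 0.097 and 0.104 in their deviations from the genotype means, and mice of different numbers at -0.185 to 0.0936. Each same-number value was thus above the others, but whether mice of the same number were paired cannot be told from these values. The main fit did not pair them. With 3 mice a genotype, the 95% intervals of single genes reached 0.20 to 0.55 on the log2 scale on either side.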
